A study of Mus musculus with 2 samples.

Results

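Neurexins, neuroligins and leucine-rich repeat transmembrane proteins (LRRTMs) are adhesion molecules that join the membranes on either side of a synapse. Neurexins sit mainly on the axon terminal and act as receptors for many partners, among them the postsynaptic neuroligins and LRRTMs. The partners bind one another across the cleft, and their intracellular ends recruit release machinery on one side and receptors and scaffolds on the other. In the newborn cortex most synapses have yet to form, and these genes are already transcribed in young neurons.

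The 8 genes described here are the neurexins Nrxn2 and Nrxn3, the neuroligins Nlgn1, Nlgn2 and Nlgn3, and Lrrtm1, Lrrtm2 and Lrrtm3, out of 18193 genes that the array names singly. They were taken by name, with every probe set that the platform annotation gives to exactly 1 of them, which came to 24 probe sets. A probe set is a group of short oligonucleotides on the array that reads one stretch of transcript. The measurements are 2 Affymetrix expression arrays of cerebral cortex from mice at postnatal day 0, each hybridised with RNA pooled from 3 animals. The pool labelled control (control pool below) is given as MRTFA-/-;MRTF-BFlox/Flox, that is, null for Mrtfa with Mrtfb flanked by lox sites and no Cre. The pool labelled double knockout (knockout pool) carried the same alleles, MRTF-A-/-;MRTF-BF/F, plus a GFAP-Cre transgene, named for a promoter that is active in astrocytes and in radial glia, the progenitors of cortical neurons. Both pools thus lack Mrtfa by label, and the comparison asks what the added deletion of Mrtfb and the presence of Cre change in the cortex. MRTFs are proteins through which the state of actin reaches SRF, a transcription factor, in the nucleus. The description of the double knockout sample alone gives postnatal day 1. No wild-type pool is among the samples.

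Since each group has 1 array and hence no replicate, no test could be run, and each difference describes these 2 pools rather than the genotypes. The values are MAS5 signals, a linear intensity summary of a probe set. Differences are given as log2 of double knockout over control after the arrays were centred on each other. A signal under a floor of 178.6, the median signal of the arrays, was set to the floor, and a probe set or gene was measured if it reached the floor on at least 1 array; one that reached it on each array is called bright in both pools. The value of a gene is that of its brightest probe set. Signals of different probe sets depend on their oligonucleotides, so levels were compared only within a probe set. Over the 4858 genes with at least 2 probe sets bright in both pools, the pooled SD of the difference between probe sets of one gene was 0.181 log2, and this SD holds no spread between animals.

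The 2 arrays were close to each other, with a Pearson r of 0.990 across 11013 genes bright in both pools, genes not being independent replicates. On its brightest probe set Mrtfb read 3358.9 in the control pool and 2481.8 in the knockout pool. Mrtfa, null by label in both, read 601.6 and 262.4 on a probe set that was not placed against the deletion here. Markers of neurons and of the cortex were present: all 8 pan-neuronal markers were measured, with signals of at least 3274.3, and so were 7 cortical markers, Tbr1, Fezf2, Bcl11b, Neurod2, Neurod6, Emx1 and Slc17a7. Of 9 striatal markers 7 were measured too, with control signals of up to 3508.2. The markers therefore do not show that the pools were cortex alone, and the sample titles say only brain.

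All 8 synapse organiser genes were measured, and they split evenly, with 4 higher and 4 lower in the knockout pool, or 5 higher without centring, since Nlgn2 lay at -0.0030. Their median difference was 0.01 log2, the same to that precision as the 0.01 over all 11636 measured genes. Of the 24 probe sets 22 were bright in both pools, 1 reached the floor on the control array alone and 1 on neither. Among the 22, the knockout pool was higher in 9 and lower in 13, and their median was -0.05, beside 0.00012 over all 21609 such probe sets. The plot of signals shows how close most pairs lie.

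**Figure D1:**
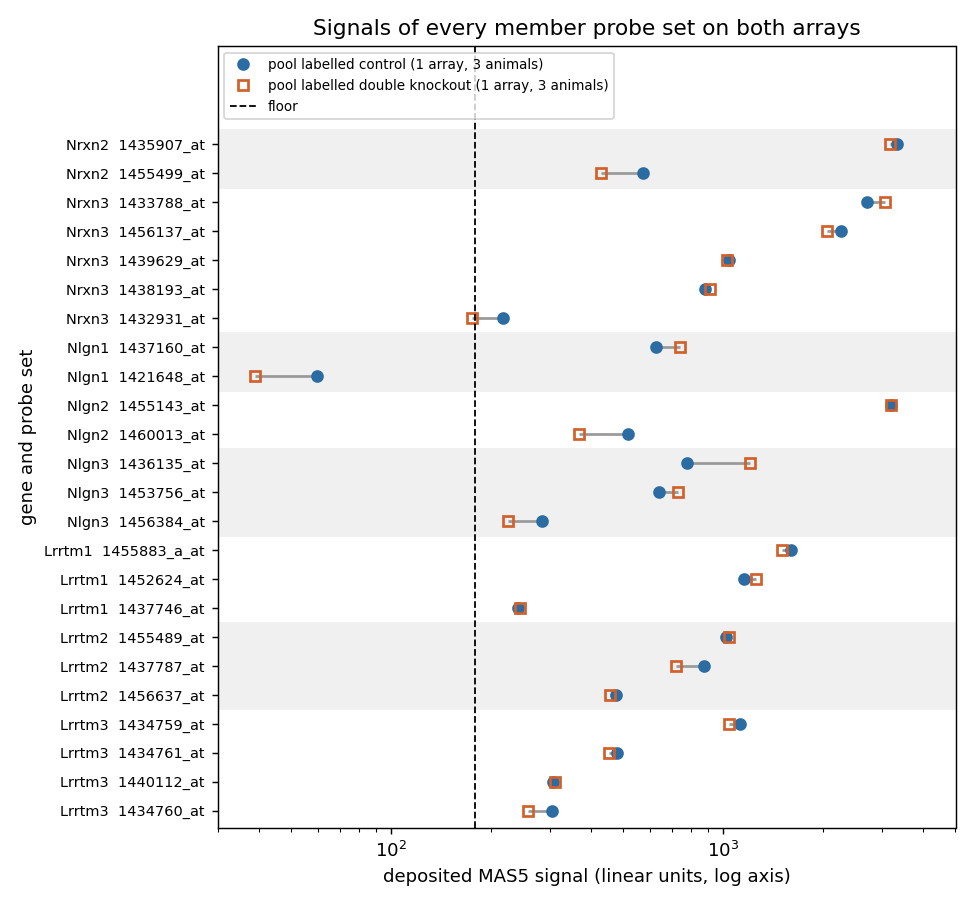
Deposited MAS5 signals (log axis) of the 24 member probe sets, with the control pool as filled circles and the knockout pool as open squares, 1 array each and no error bar because there is no replicate. Most pairs nearly coincide, the widest gap above the floor (dashed, 178.6) is that of the Nlgn3 probe set 1436135_at, from 776.8 to 1202.8, and a dim Nlgn1 probe set lies under the floor on both arrays.

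A single gene of the 8, Nlgn3, passed 1.5-fold, and none passed 2-fold. Over all measured genes 1.14% passed 1.5-fold in either direction and 0.0773% passed 2-fold, so the count rests on a single gene and, within it, on a single probe set. Of the 23 measured member probe sets 1 passed 1.5-fold, against 1.51% of all measured probe sets.

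Nlgn3 encodes an X-linked neuroligin found at both excitatory and inhibitory synapses. Its brightest probe set, 1436135_at, read 776.8 in the control pool and 1202.8 in the knockout pool, 1.54-fold higher (0.63 log2). The second probe set, 1453756_at, read 637.9 and 731.1, a difference of 0.19. The dimmest, 1456384_at, went the opposite way, from 284.6 to 225.2 (-0.34). The 3 probe sets thus gave a mean of 0.16 ± 0.49 (SD, 3 probe sets), an SD wider than the mean. Of all 21609 probe sets bright in both pools, 0.884% differed by as much as the brightest one of Nlgn3. The gap of 0.97 log2 between its highest and lowest probe set was matched or exceeded by 26 of the 4858 genes that had 2 or more of them. That count was not split by number of probe sets, and a gene with 2 has less room for a gap than one with 3. The 3 probe sets were not placed on transcripts here, and no Nlgn3 level can be stated for the gene as a whole.

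Nlgn2, the neuroligin of inhibitory synapses, where it binds the scaffold gephyrin, was level on its brightest probe set. That probe set, 1455143_at, read 3189.8 and 3191.4 in the control and knockout pools, a difference of -0.0030. Its dimmer probe set, 1460013_at, read 517.3 and 366.4, 1.42-fold lower (-0.50). A share of 2.49% of all probe sets bright in both pools differed by as much as the latter. Both together averaged -0.25 ± 0.35 (SD, 2 probe sets), so the gene has no single direction beyond this spread.

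Nlgn1 is the neuroligin of excitatory synapses. It read 627.6 and 739.1 on 1437160_at, 1.17-fold higher (0.23) in the knockout pool. This was its only usable probe set, since 1421648_at read 59.6 and 38.9, under the floor on both arrays. A difference of that size or more was seen in 19.1% of all probe sets bright in both pools. The 3 neuroligins had a median of 0.23, which is the value of Nlgn1 itself.

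**Figure D2:**
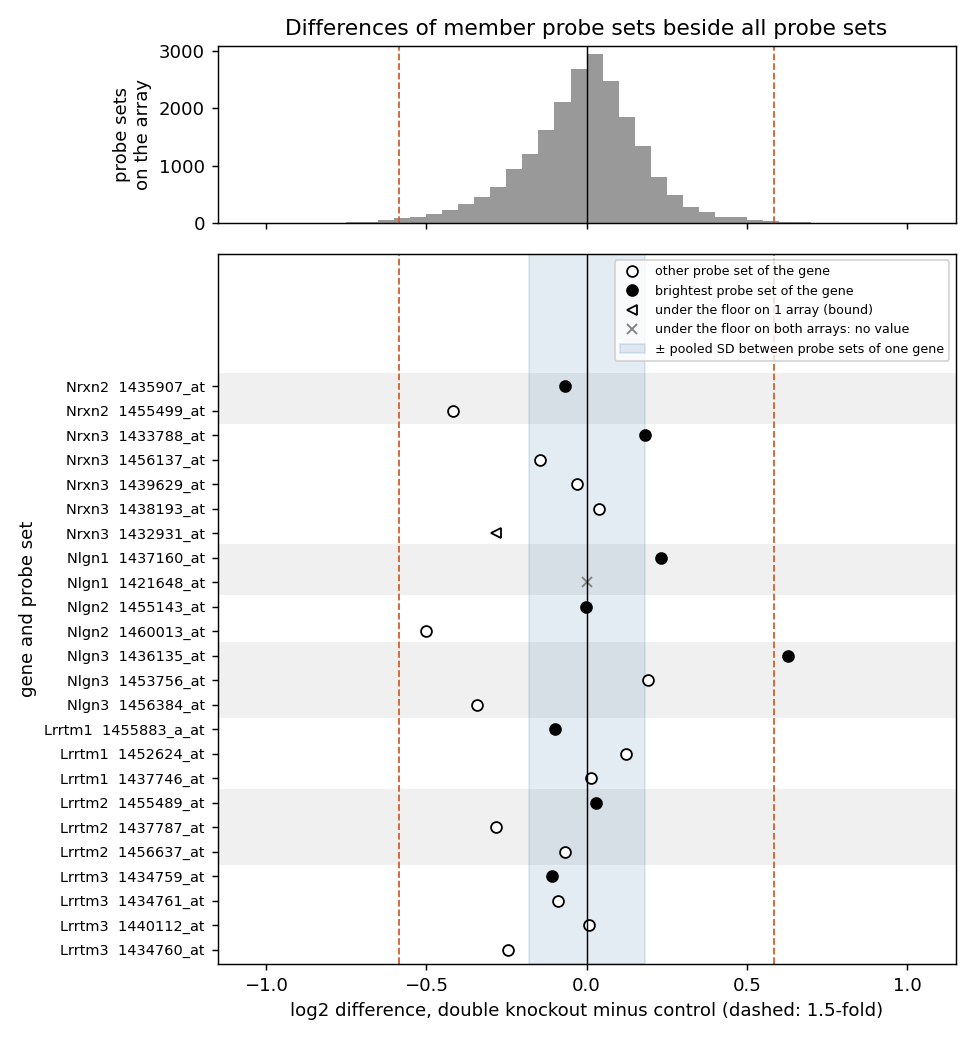
Log2 differences (double knockout minus control) of the member probe sets, the brightest of each gene filled, with the histogram of all 21609 probe sets bright in both pools above; the blue band is ± the pooled SD of 0.181 between probe sets of one gene and the dashed lines mark 1.5-fold. Only the brightest Nlgn3 probe set, at 0.63, lies past 1.5-fold. Among probe sets bright in both pools, those of Nlgn3, Nlgn2 and Nrxn2 spread most widely within a gene.

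By their brightest probe sets the neurexins went in opposite directions, while both were lower with the mean over measured probe sets. For Nrxn3 the lower mean rests on a probe set under the floor in the knockout pool. Nrxn2 read 3323.2 and 3179.2 on its brightest probe set, 1435907_at, a difference of -0.07. On 1455499_at it read 570.9 and 428.9, 1.33-fold lower (-0.42). The annotation gives both of these probe sets the same source cDNA, and yet they differed from each other by 0.35 log2. Their mean was -0.24 ± 0.25 (SD, 2 probe sets), lower on both.

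Nrxn3, whose transcripts start at several promoters and are heavily spliced, was read by 5 probe sets. The brightest, 1433788_at, read 2702.4 and 3077.1, 1.14-fold higher (0.18) in the knockout pool. The next, 1456137_at, read 2255.4 and 2045.1 (-0.14). These 2 bright probe sets went in opposite directions. Between them lay 1439629_at, at 1043.2 and 1024.9 (-0.03), and 1438193_at, at 883.0 and 909.3 (0.04). The fifth, 1432931_at, read 217.2 in the control pool and 175.2, under the floor, in the other, at least 1.22-fold lower. Over the 4 probe sets bright in both pools the mean was 0.01 ± 0.14 (SD), an SD many times the mean.

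The LRRTMs, postsynaptic partners of neurexins at excitatory synapses, covered a narrower range than the neurexins or the neuroligins. The differences of their 10 probe sets, all bright in both pools, ran from -0.28 to 0.12, and 4 were higher and 6 lower. Over genes the median was -0.10, but 0.03 when probe sets with a suffix, which may read more than 1 transcript, were left out.

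Lrrtm3 had the lowest SD between probe sets of the 7 members with at least 2 to compare. It read 1119.1 and 1042.2 on 1434759_at, a difference of -0.11. On 1434761_at it read 479.6 and 452.5 (-0.09), and on 1434760_at 304.8 and 258.1 (-0.24). These 3 were lower in the knockout pool and share a source cDNA in the annotation. The fourth, 1440112_at, from another cDNA, read 307.5 and 310.2 (0.0089). The mean was -0.11 ± 0.10 (SD, 4 probe sets).

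Lrrtm1 read 1602.6 and 1500.6 on its brightest probe set, 1455883_a_at, a difference of -0.10. The 2 others were higher in the knockout pool, 1452624_at at 1150.7 and 1257.1 (0.12) and 1437746_at at 241.1 and 244.1 (0.01). The suffix of the brightest marks it as able to read more than 1 transcript, and without it the difference of the gene was 0.12. Its mean was 0.01 ± 0.11 (SD, 3 probe sets).

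Lrrtm2 read 1018.4 and 1043.0 on 1455489_at (0.03). Both dimmer probe sets were lower in the knockout pool, 1437787_at at 871.8 and 718.7 (-0.28) and 1456637_at at 476.4 and 455.6 (-0.07). The mean was -0.11 ± 0.16 (SD, 3 probe sets), opposite in sign to the brightest probe set.

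Directions could be compared between probe sets of one gene. Of the 7 members with at least 2 probe sets bright in both pools, 5 had probe sets in both directions (Nrxn3, Nlgn3, Lrrtm1, Lrrtm2 and Lrrtm3). The other 2, Nrxn2 and Nlgn2, were lower on all, and 0 were higher on all. For Nlgn2 this rests on a difference of -0.0030 on its brightest probe set, whose sign turned without centring. Over all 4858 genes with at least 2 probe sets bright in both pools, 56.9% had probe sets in both directions. The share was 45.7% for genes with 2, 68.3% with 3 and 80.7% with 4, while 2, 3 and 2 of the members had these numbers. The pooled SD within the members was 0.242 log2, against 0.181 over all genes, but 0.171 over the 6 members other than Nlgn3. Of the 14 member probe sets that were not the brightest of their gene, 9 were lower in the knockout pool, or 64.3%, against 53.9% over all genes. Differences spread more among dim probe sets in general: the SD over all probe sets was 0.238 among the dimmest of those bright in both pools, split into 3 equal classes by signal, 0.196 in the middle and 0.141 in the brightest. Of the 22 member probe sets, 4, 9 and 9 fell in these classes. The part of signal level in the member differences was not tested.

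The LRRTM genes lie inside the alpha-catenin genes, which encode the link between cadherins and actin: in the RefSeq annotation of assembly GRCm38.p6, Lrrtm1 lies within the span of Ctnna2, Lrrtm2 within Ctnna1 and Lrrtm3 within Ctnna3. For Lrrtm1 and Lrrtm3 the table places host and nested gene on opposite strands. Ctnna2 read 2848.3 and 2973.5 on its brightest probe set (0.06), and Ctnna1 1303.3 and 1116.1 (-0.23), on a probe set whose suffix marks possible cross-hybridisation. The 2 probe sets of Ctnna1 bright in both pools had a mean of -0.03 ± 0.28 (SD). Ctnna3 stayed under the floor on both arrays while the gene nested in it, Lrrtm3, was measured in both.

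The 250 bases before a start site are shown for the 2 members whose window in the RefSeq promoter table (GRCm38.p6) lies at the outermost start of the gene, because SRF, the partner of the deleted coactivators, binds promoters at a sequence called the CArG box. Capitals mark the GC box GGGCGG, a common promoter element, and the bases run 5′ to 3′ on the strand of the gene.
Nlgn2, chr11:69837785-69838034, minus strand: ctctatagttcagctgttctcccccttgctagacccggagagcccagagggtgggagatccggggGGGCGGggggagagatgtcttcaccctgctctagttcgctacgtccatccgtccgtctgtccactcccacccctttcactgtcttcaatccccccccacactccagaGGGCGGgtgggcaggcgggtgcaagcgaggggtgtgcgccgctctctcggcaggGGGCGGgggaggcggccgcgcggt
Lrrtm3, chr10:64090256-64090505, minus strand: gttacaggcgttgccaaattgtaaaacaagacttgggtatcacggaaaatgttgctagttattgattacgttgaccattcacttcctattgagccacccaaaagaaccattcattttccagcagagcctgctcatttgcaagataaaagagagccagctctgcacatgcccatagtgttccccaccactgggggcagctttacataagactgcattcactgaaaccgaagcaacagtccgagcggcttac
The Nlgn2 stretch holds 3 GC boxes and the Lrrtm3 stretch 0. Windows of 300 bases, 250 before and 50 after the start, were found for 5 members, with 8 windows in all: Nlgn1, Nlgn2, Nrxn3, Lrrtm1 and Lrrtm3. A CArG box, searched on both strands and without mismatch, was in 0 of the 8 windows, against 1.63% of the 32851 windows in the table. The same search found it in 4 of 8 well-known SRF target genes with a window, Acta1, Myl9, Srf and Vcl. The GC box, on either strand, was in 3 of the 8 member windows, those of Nlgn2, Lrrtm1 and Nrxn3, against 35.7% of all windows. The Nlgn2 window is rich in CpG pairs, with 26 in 300 bases against a median of 7, and that of Lrrtm3 has 10. A missing match says only that these letters are not in these windows.

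Further genes were taken as lists by role, called partner lists here. They covered partners of the 8 genes, other synapse organisers and their partners, and the alpha-catenins. Of 81 genes 70 were measured. Of these 38 were higher and 32 lower in the knockout pool, with a median of 0.02, and 1 passed 1.5-fold, against 1.14% of all measured genes. The exception was Ntng2, netrin-G2, of the other presynaptic organisers, an axonal partner of the postsynaptic protein LRRC4. It read 291.7 in the control pool and 141.1, under the floor, in the other, at least 1.63-fold lower. List medians lay between -0.16 and 0.08. Over the alternative settings the medians of the splicing and shedding list, the postsynaptic partners, the other presynaptic organisers and the alpha-catenins took both signs, as did that of the 8 members themselves.

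Presynaptic scaffold proteins that bind the neurexin tail, or proteins on it, had the lowest median, -0.16 over 8 genes, 5 of them lower and 3 higher. None passed 1.5-fold. Apba1, which encodes the scaffold Mint1, read 4936.9 and 3455.3, 1.43-fold lower (-0.52), and its other probe sets stayed under the floor. Apba2, for Mint2, read 1533.6 and 1322.3 (-0.22). Lin7b, a partner of CASK and Mint1, read 1675.1 and 1449.2 on its brightest probe set, and its 4 probe sets averaged -0.23 ± 0.16 (SD). The list median stayed between -0.19 and -0.14 under every alternative setting.

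Postsynaptic partners of the neuroligins had a median of 0.03 over 10 genes, 6 higher and 4 lower, with 0 past 1.5-fold. Dlg4, the scaffold PSD-95, read 3400.7 and 2842.2 (-0.26) on its brightest probe set, but had a mean of -0.07 ± 0.30 (SD, 3 probe sets). Dlg3 differed by -0.10, and Gphn, the gephyrin of inhibitory synapses, by 0.10, its 3 probe sets averaging 0.02 ± 0.10 (SD). Neither the excitatory nor the inhibitory scaffold gene thus differed beyond the spread of its probe sets.

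Secreted and membrane ligands of neurexins had a median of -0.03 over 9 genes, 4 higher and 5 lower, with 0 past 1.5-fold. Cbln1, a secreted protein that bridges neurexins to glutamate delta receptors, differed by -0.20 on its brightest probe set and by a mean of 0.05 ± 0.29 (SD, 3 probe sets). Its relatives Cbln2 and Cbln4 differed by 0.12 and -0.11. Genes for proteins that splice neurexin transcripts or shed neuroligins and neurexins had a median of 0.02 over 8 genes, 4 in each direction. The largest differences among them were in the splicing regulators Nova2 (-0.23), Nova1 (-0.17) and Khdrbs2 (-0.15), each read on 1 probe set bright in both pools.

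Other leucine-rich synapse organisers had a median of 0.08 over 15 genes, 11 higher and 4 lower, with 0 past 1.5-fold. Lrfn2 differed by 0.30, Lrfn1 by -0.32 and Lrrc4b by -0.20 on their brightest probe sets, and Lrfn1 had a mean of -0.08 ± 0.33 (SD, 2 probe sets). Other presynaptic organisers and their partners had a median of 0.02 over 18 genes, 9 in each direction. Adgrl3, a latrophilin, differed by 0.33 on its brightest probe set, while its 5 probe sets averaged 0.11 ± 0.23 (SD). Il1rap differed by -0.32, its 2 probe sets averaging -0.10 ± 0.31 (SD), and the receptor phosphatase Ptprd by 0.16, its 5 averaging 0.03 ± 0.13 (SD).

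**Figure D3:**
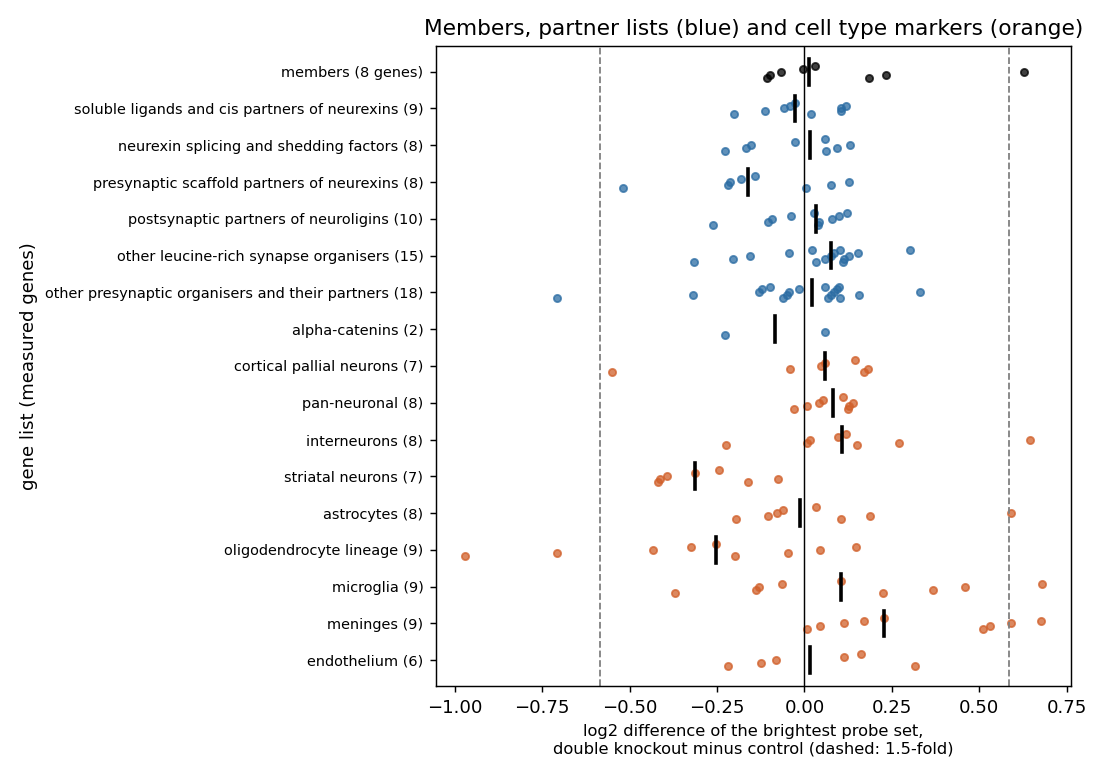
Log2 differences (double knockout minus control) of the 8 members (black), the partner, other organiser and alpha-catenin lists (blue) and cell type markers (orange). Each point is 1 measured gene by its brightest probe set and each bar the list median, with dashed lines at 1.5-fold. The members centre on 0.01 with Nlgn3 apart at 0.63, the presynaptic scaffold list lies at -0.16, and the striatal and meningeal markers lie at -0.31 and 0.23.

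The arrays do not show which cells carry the synapse organiser transcripts, and markers of the cells in the tissue differed between the same pools. In bulk tissue, fewer cells of a type and less RNA per cell cannot be told apart. Pan-neuronal markers were higher in 7 of 8 cases in the knockout pool, with a median of 0.08 and a summed signal of 61497 in the control pool and 63992 in the other. Cortical neuron markers were higher in 5 of 7, with a median of 0.06, but their summed signal was lower, 15330 and 14632, and Slc17a7, a vesicular glutamate transporter, read 4497.8 and 3079.7 (-0.55). Interneuron markers were higher in 7 of 8, with a median of 0.11. They were higher in only 5 of 8 after quantile normalization, loess centring or averaging over measured probe sets. All 7 striatal markers were lower, with a median of -0.31 and sums of 10019 and 8469. Oligodendrocyte lineage markers were lower in 7 of 9, with a median of -0.25 and sums of 22433 and 19174. All 9 meningeal markers were higher, with a median of 0.23 and sums of 6691 and 8671. Medians were 0.11 over 9 microglial, -0.01 over 8 astrocyte and 0.02 over 6 endothelial genes. The microglial list, which includes the macrophage gene Mrc1, had 5 higher and 4 lower. Astrocyte genes had 4 in each direction and endothelial genes 3. Without suffixed probe sets the meningeal median was 0.49, the oligodendrocyte median -0.12 and the microglial median 0.22. The medians of the cortical, microglial and astrocyte lists took both signs over the alternative settings. The markers past 1.5-fold were Dlx1 (0.64) of interneurons, Gfap (0.59) of astrocytes, Mrc1 (0.68) of macrophages, Igf2 (0.59) and Aldh1a2 (0.68) of the meninges, all higher, and the myelin genes Mag (-0.71) and Mobp (-0.97), both lower. The part of these cell types in the differences of the synapse organisers was not tested.

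**Figure D4:**
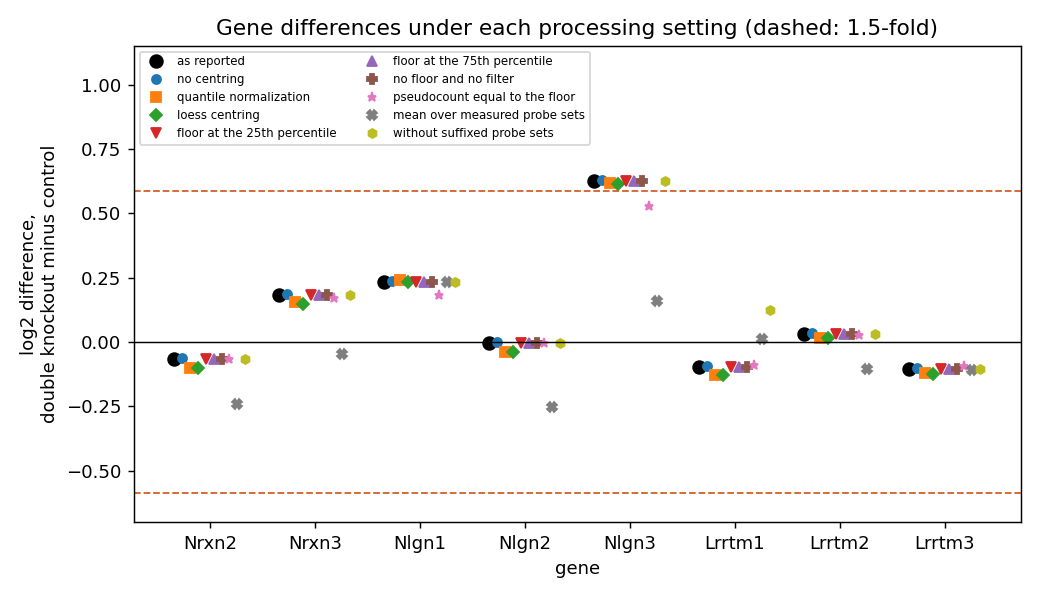
Log2 difference of each member gene (double knockout minus control) as reported (black circles) and under 9 alternative settings, with dashed lines at 1.5-fold. Nlgn3 falls from 0.63 to 0.16 when its probe sets are averaged, and Nrxn3, Lrrtm1 and Lrrtm2 change sign under that setting. For Nrxn3 the change rests on a probe set under the floor in the knockout pool, without which its mean is 0.01.

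The choice of probe set mattered more than the scaling. With the mean over measured probe sets in place of the brightest, Nlgn3 differed by 0.16, Nlgn2 by -0.25, Nrxn2 by -0.24 and Nrxn3 by -0.05. No member then passed 1.5-fold, and 3 of 8 were higher. The Nrxn3 value counts 1432931_at, set to the floor in the knockout pool. Over its 4 probe sets bright in both pools the Nrxn3 mean was 0.01.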

How the data were processed

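Signals of 45101 probe sets on 2 arrays, 1 per group, were used. The submitters' processing notes name MAS5 for these deposited intensity values, and its version was not given in the sources used here. The trimmed mean of the signals was 500.002 on each array, which is the scaling that the values themselves show. RNA was extracted with Trizol and 6 ug of total RNA was labelled, per the labels' protocols. Of 45037 probe sets left after 64 control probe sets, 34945 named 1 gene, 932 several and 9160 none in the platform annotation; Entrez identifiers of 99.4% of the first were matched to the GRCm38.p6 RefSeq table, and 0 symbols changed. No column belonged to another sample.

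Arrays were centred on the median log2 difference of probe sets bright on both (a shift of 0.0037) and floored at their median signal, control probe sets left out. The scaling and floor steps were tested on simulated data, with differences placed only in bright probe sets. Differences in dim probe sets and the choice of the brightest probe set were not tested this way. Python 3.11.15, numpy 2.4.6, pandas 2.3.3, statsmodels 0.14.6 and matplotlib 3.10.9 were used. The members, the gene lists and the settings were chosen with earlier results of these data known. The text names all members with every probe set, and of each partner list the genes, at most 3, that differed most while bright in both pools; Ntng2 and the markers past 1.5-fold were named after their values were seen. With 2 arrays no genes of like pattern were sought. The 9 alternatives were no centring, quantile normalization, loess centring (span 0.3), the floor moved to the 25th or to the 75th percentile, no floor, a pseudocount, the mean over measured probe sets, and leaving out suffixed probe sets. The number of arrays limits the precision.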

Additional observations from a re-analysis of the deposited data

How the results depend on the processing

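The count of members past 1.5-fold was 1 as reported and 0 with a pseudocount equal to the floor, which lowers Nlgn3 to 0.53, and 0 with the mean over measured probe sets. Under the other 7 alternatives it was 1, with Nlgn3 between 0.62 and 0.63. Of 72 gene values under the 9 alternatives, 68 moved by less than the pooled SD between probe sets. The exceptions were Nlgn3 at 0.16, Nlgn2 at -0.25 and Nrxn3 at -0.05 with the mean over probe sets, and Lrrtm1 at 0.12 without suffixed probe sets. Many of the 72 had little or no room to move. The 25th- and 75th-percentile floors and the setting without a floor left every member value unchanged. Only Lrrtm1 had a suffixed probe set, and leaving out the centring shifted all values alike by 0.0037. Nrxn2, from -0.07 to -0.24 with the mean over probe sets, came close to the SD of 0.181. The 68 is therefore no measure of stability. The members' median ran from -0.08 to 0.08 and so has no stable sign. Over all genes, 43 were higher and 90 lower past 1.5-fold as reported, 67 and 70 after quantile normalization, 61 and 72 after loess centring, 20 and 28 with the pseudocount, 189 and 675 with a 25th-percentile floor, 11 and 10 with a 75th-percentile one, and 742 and 1874 without a floor. The cause of these shifts was not tested. Single arrays of pooled RNA leave the spread between animals unknown, and the brightest Nlgn1 value has no second probe set beside it.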
